A study of Polypterus senegalus with 8 samples.

Results

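The transcripts described here are the abundant transcripts of the uninjured bichir pectoral fin that dropped furthest after amputation. They were chosen by their values in the mRNA libraries, in 2 steps. A component (a set of transcripts that the assembler Trinity built from connected reads, used here as a stand-in for a gene) first had to reach at least 50 CPM (counts scaled to the total of assigned reads in a library) in the uninjured fin. The 1854 components that did so were ranked by the log2 ratio of that level to the highest of the 3 later levels, with 1 CPM added to each, and the top 100 were taken. The members are thus 100 of 94050 components. Their drop from the uninjured level is a property of the choice and is given as a description only.

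The bichir, *Polypterus senegalus*, is a ray-finned fish that belongs to an early branch of that lineage and regrows its fins. Fish from a pet supplier had about 50% of the pectoral fin removed, and regrowing tissue was taken 3, 7 or 14 days post amputation (dpa). Uninjured fin is 0 dpa, and the labels give the same fin type for every stage. Polyadenylated mRNA and small RNA were each sequenced at the 4 stages, which gives 8 groups with 1 library per group, each library pooling at least 4 tissues. No test between groups was possible, no difference has a replicate check, and all intervals are 95% intervals for counting error only.

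Fins that are cut must close the wound, build a blastema (a mound of dividing cells that rebuilds the fin) and only later re-form differentiated tissue. Skeletal muscle fibers hold very large amounts of a few mRNAs, those of the sarcomere (the contractile unit of actin, myosin and nebulin filaments), of calcium storage and of energy metabolism, so RNA from muscle can make up much of a library wherever muscle is in the sample. The study describes skeletal muscle as absent from the bichir fin, and neither the labels nor its methods say how much of the fin base was taken. Muscle names below are thus names of transcripts and do not show which tissue was sampled. At 0 dpa, 5 muscle miRNAs (short RNAs described below) held 24.8% of the small RNA reads assigned to miRNAs. Whether muscle was in the sample was not tested. In bulk tissue, fewer cells of a type and less RNA per cell cannot be told apart.

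The mRNA libraries held 39121698, 38095865, 43350285 and 38377535 reads at 0, 3, 7 and 14 dpa, so that 1 read was worth 0.0231 to 0.0262 CPM. The 0 dpa library stood apart in breadth, since 31559, 2796, 5987 and 1501 components were listed at 0 in the libraries of the 4 stages. Every change from the uninjured fin rests on that library. CPM was not divided by transcript length, so levels are compared between stages of 1 component and not between genes.

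Only 9 of the 100 members had a gene symbol in the tables of the study, 1 more had an ortholog identifier without a symbol, and 90 had neither. Of all 1854 components with at least 50 CPM at 0 dpa, 401 had a symbol. All 9 names came from a table that the study chose by a drop in these same libraries, and 4 of them were also in its ortholog table, so the names are no independent evidence of direction. Names rest on sequence similarity, and near-identical families such as the actins and elongation factors can share reads.

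Of the uninjured library's mRNA reads, the members held 13.7% (Wilson interval 13.6 to 13.7%). In the 3 dpa library they held 0.184% (0.182 to 0.185%). The 7 dpa share was 0.0831% (0.0822 to 0.0839%) and the 14 dpa share was 0.376% (0.374 to 0.378%). Relative to the uninjured fin, their joint share was thus 74.3-fold, 164-fold and 36.3-fold lower at 3, 7 and 14 dpa. The 14 dpa share was 4.53 times the 7 dpa share, and the intervals of the 4 libraries did not overlap. The 10 members with the most reads made up 67.9% of member reads at 0 dpa, and the top 2 made up 29.7%. The 7 dpa share leaned on the member comp43234_c0, singled out after its values were seen. It had 608222 of 5340217 member reads at 0 dpa and 16690 of 69963 at 3 dpa. At 7 dpa it had 23575 of 36016 and at 14 dpa 16198 of 144371, so the joint 7 dpa share does not stand for the typical member.

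The median member had 272, 2.72, 0.90 and 5.93 CPM at 0, 3, 7 and 14 dpa. At 0 dpa the members ranged from 50.6 to 22127 CPM. In the later libraries no member passed 438, 544 and 556 CPM at 3, 7 and 14 dpa. The plot of all members by stage shows this shape, a deep drop by 3 dpa, a lower point at 7 dpa and a partial return at 14 dpa.

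**Figure D1:**
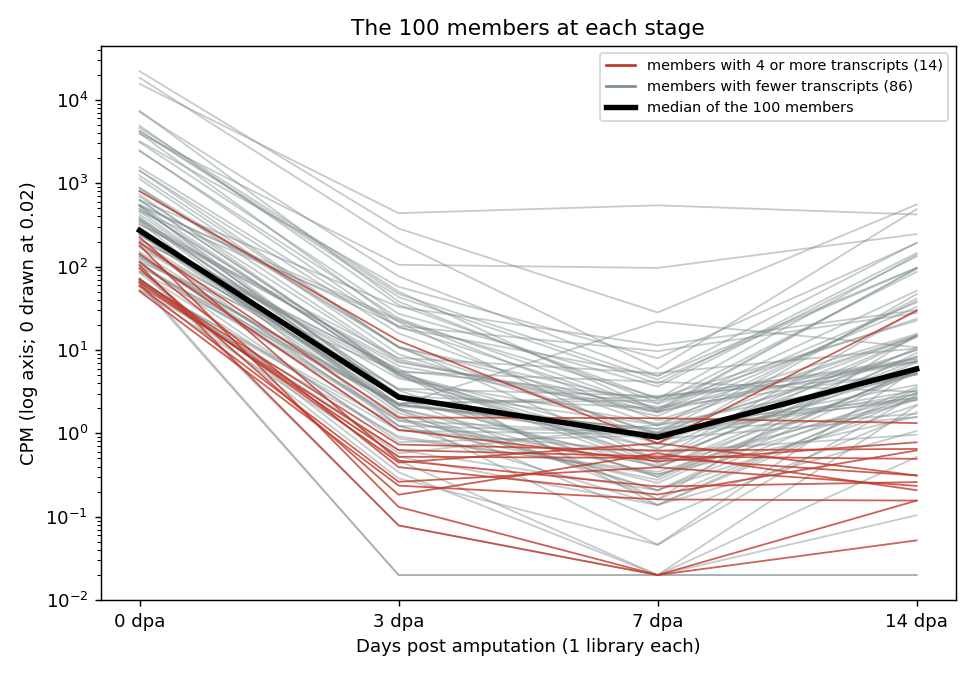
CPM (log axis) of the 100 members in the 0, 3, 7 and 14 dpa mRNA libraries, 1 line per member, with members of 4 or more transcripts in red and the median in black. The median line runs through 272, 2.72, 0.90 and 5.93 CPM, while single red lines vary, with 6 of 14 within 2-fold across the later libraries.

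On the log2(CPM + 1) scale, which understates the change of low levels, the median change of the members from 0 dpa was −6.14, −7.00 and −5.20 at 3, 7 and 14 dpa. Over all 1854 components with at least 50 CPM at 0 dpa the medians were −0.22, 0.03 and −0.11. All 100 members were more than 1.5-fold lower (a log2 change below −0.58) at every later stage, as the choice fixes, beside 41.7%, 36% and 38.6% of the 1854 at 3, 7 and 14 dpa.

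Scaling by library totals shifted the whole table. The median change over the 28836 components with a mean of at least 1 CPM was 1.04, 0.85 and 1.06 at 3, 7 and 14 dpa, and under a trimmed mean of log ratios it was 0.16, 0.18 and 0.14. The members' medians under that scaling were −6.64, −7.44 and −6.08. The comparison set of 1854 moved more, to medians of −1.39, −0.94 and −1.33 with 67.7%, 60.4% and 70.0% of it lower, so that its 7 dpa median changed sign and its lower share depends on the scaling. Each of the 100 members was past 1.5-fold lower at every later stage under all 5 scalings tried. As the members were chosen by the size of this drop, that outcome is no separate support for it.

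Few members vanished. A value above 0 was listed in at least 1 later library for all but 2 members, comp50446_c0 and comp47160_c0. These 2 were singled out after their values were seen. They had 2598 and 2447 reads (66.4 and 62.5 CPM) at 0 dpa and were listed at 0 in every later library. Against a floor of 3 reads per library, comp50446_c0 was 843-fold, 960-fold and 850-fold lower at 3, 7 and 14 dpa. The lower ends of its intervals were 685-fold, 780-fold and 690-fold if a listed 0 is 0 reads, and would be smaller if it is 1 read. In total 2, 7 and 2 members were listed at 0 at 3, 7 and 14 dpa, and 15 members had at most 1 CPM in every later library.

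At the edge of the choice, the last member taken was comp52394_c0, with 53.1, 0.919, 0.323 and 2.53 CPM over the 4 stages and a ranking value of 3.938. The component just outside, comp57916_c0, had 2978, 49.2, 2.08 and 193 CPM at the same stages and a ranking value of 3.937. The step between them is far smaller than the range of the members' changes.

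The named members were examined next, starting with proteins of filaments, of calcium storage and of membranes. The plot of the 9 named members shows that each kept under 5% of its uninjured level in all later libraries.

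Nebulin (neb) is the giant protein that runs along the thin filament of the sarcomere. Its member component, comp16999_c0, had 1234, 10.8, 1.80 and 37.3 CPM over the 4 stages. It was 114-fold lower at 3 dpa than at 0 dpa (interval 104 to 126), 686-fold lower at 7 dpa (550 to 868) and 33.1-fold lower at 14 dpa (31.4 to 34.9). The 14 dpa level was higher than both earlier regenerating levels, and the 7 dpa level was the lowest.

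Actin alpha 2 (acta2), named for the smooth muscle actin of vessel walls but nearly identical to the actins of striated muscle, had 112, 0.787, 0.946 and 2.68 CPM at 0, 3, 7 and 14 dpa. It was 143-fold lower at 3 dpa (100 to 212), 119-fold lower at 7 dpa (87.5 to 166) and 41.9-fold lower at 14 dpa (34.5 to 51.4). It was the only named member with its lowest level at 3 dpa, although the 3 and 7 dpa levels rest on 30 and 41 reads and the interval of their log2 difference, −0.21 to 0.44, includes 0.

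The histidine rich calcium binding protein (HRC), which binds calcium inside the sarcoplasmic reticulum of muscle, had 151, 1.63, 0.0461 and 5.94 CPM at 0, 3, 7 and 14 dpa. The 7 dpa value stands for 2 reads, and it was 3267-fold lower than at 0 dpa with an interval of 904 to 26980. The sodium and potassium pump subunit atp1a1b, which is in none of the muscle lists read below, had 168, 2.70, 0.946 and 6.31 CPM at the same stages. For both, 14 dpa was above 3 dpa and 3 dpa above 7 dpa.

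Next came enzymes and subunits of energy metabolism. The cytochrome oxidase subunit cox6a2, known in mammals as the form of heart and skeletal muscle, had 292, 1.99, 0.323 and 1.59 CPM at 0, 3, 7 and 14 dpa. It had the lowest share of its uninjured level at 14 dpa among the named members, 0.544%, and was 184-fold lower there than at 0 dpa (143 to 241). Its 3 and 14 dpa levels did not differ beyond counting error, with a log2 difference of −0.21 (interval −0.53 to 0.11). Fructose-1,6-bisphosphatase (fbp1a), an enzyme of glucose synthesis, had 191, 1.23, 0.138 and 3.39 CPM at the 4 stages.

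The remaining named members belong to protein folding and translation. The small heat shock protein hspb1, a chaperone, had 458, 22.2, 2.68 and 22.5 CPM over the 4 stages. It kept the most of the named members at 3 and 14 dpa, 4.84% and 4.92% of its uninjured level, against 0.584% at 7 dpa. The elongation factor component eef2l2 had 132, 2.13, 1.13 and 2.50 CPM at the 4 stages, and eef1a1l1 had 52.4, 0.472, 0 and 0.521 CPM. Listed at 0 at 7 dpa, eef1a1l1 was 758-fold lower there than at 0 dpa against a floor of 3 reads. The lower end of its interval was 616-fold if the listed 0 is 0 reads, and would be smaller if it is 1 read. Both factors have close relatives that every cell uses, so these components are uncertain as single genes.

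**Figure D2:**
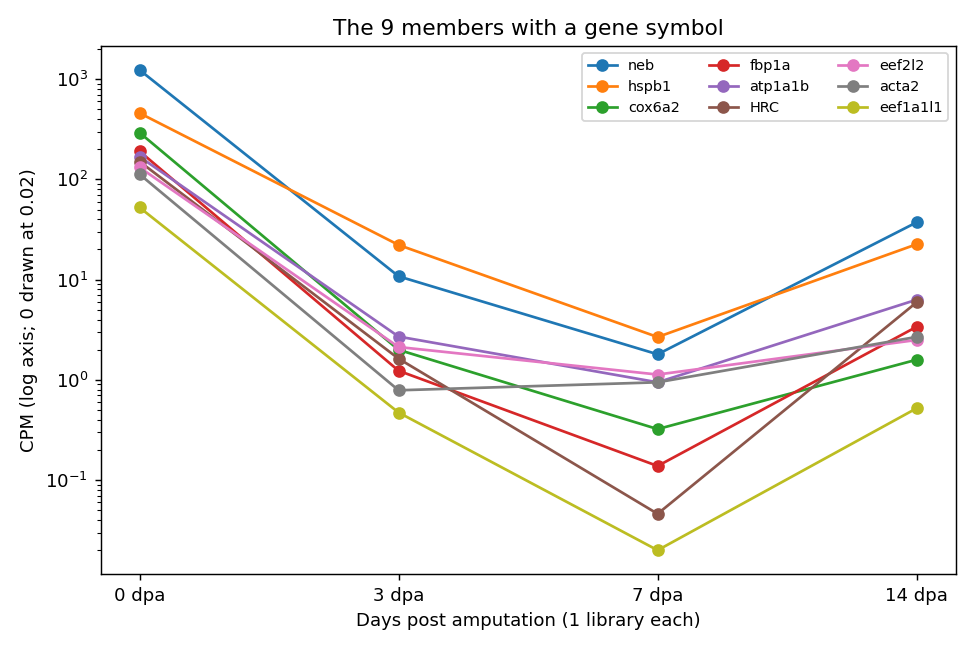
CPM (log axis) of the 9 members with a gene symbol in the 0, 3, 7 and 14 dpa mRNA libraries, 1 line per component and 1 library per stage. All 9 lines drop below 25 CPM by 3 dpa, 8 of them are lowest at 7 dpa, and neb and hspb1 are the highest at 14 dpa with 37.3 and 22.5 CPM.

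Most of the mass lay in components without a name. The 2 most abundant, which the files and the reference do not annotate, were comp59449_c0 and comp58531_c1. The component comp59449_c0 had 22127, 287, 28.2 and 556 CPM over the 4 stages, and it was the third most abundant component of the uninjured library by reads. The component comp58531_c1 had 18443, 195, 5.97 and 489 CPM. Both had 14 dpa above 3 dpa and 3 dpa above 7 dpa. Of the 10, 50 and 200 components with the most reads at 0 dpa, 3, 13 and 26 were members, beside 100 of the 1854. The ranking value can be larger where the 0 dpa level is higher, so these counts are not separate from the choice. Of the same 10, 50 and 200 components, 8, 38 and 129 were more than 1.5-fold lower at 7 than at 0 dpa.

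Since the ranking used only the highest later level, it did not fix the order of the 3 later libraries, and these were compared among themselves. These comparisons do not involve the 0 dpa library. At 7 dpa, 60 of the 100 members were more than 1.5-fold lower than at 3 dpa and 1 was higher, with a median log2 change of −0.96. Of all 1854 components with at least 50 CPM at 0 dpa, 14% were lower and 16.7% higher, with a median of 0.05. Under the trimmed scaling 50 members were lower, beside 9.22% of the 1854.

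At 14 dpa, 78 members were more than 1.5-fold higher than at 7 dpa and 1 was lower, with a median log2 change of 1.70, beside 19.3% higher and 13.5% lower of the 1854 and a median of −0.04. Under the trimmed scaling 70 members were higher, beside 13.9% higher and 27.7% lower of the 1854. At 14 dpa against 3 dpa, 55 members were higher and 3 lower, with a median of 0.84, beside 14.2% higher and 1.4% lower and a median of 0.02. The 3 lower members, comp59898_c0, comp50548_c0 and comp18452_c0, were named after their values were seen.

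**Figure D3:**
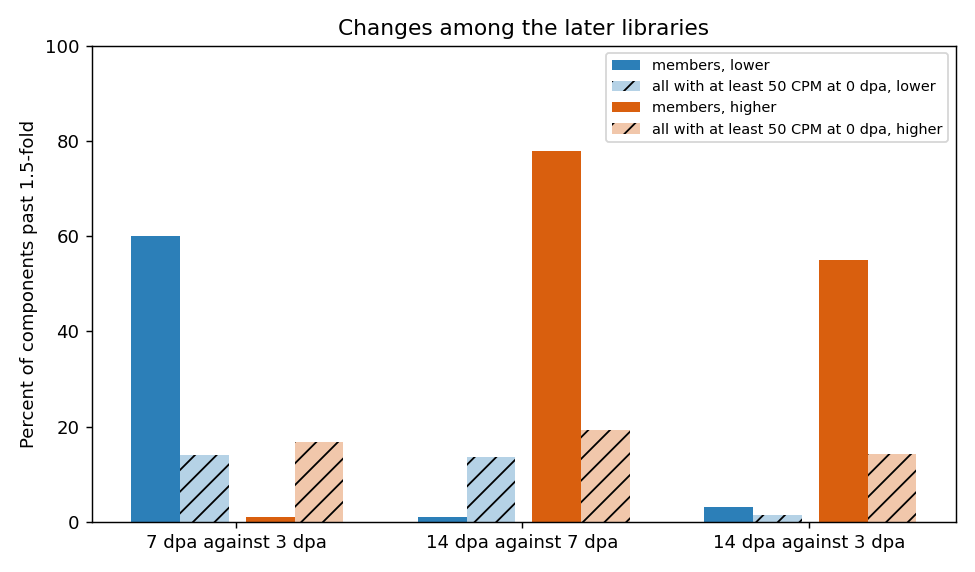
Percent of components more than 1.5-fold lower (blue) or higher (orange) between pairs of later libraries, solid bars for the 100 members and hatched bars for all 1854 components with at least 50 CPM at 0 dpa. Members were lower at 7 than at 3 dpa in 60% and higher at 14 than at 7 dpa in 78%, against 14% and 19.3% of the 1854.

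At any size of difference, 7 dpa was the lowest later library for 84 members (37.2% of the 1854) and 14 dpa was the highest for 77 (32.3%). The full order, 14 dpa above 3 dpa above 7 dpa, was seen in 73 members and in 22.5% of the 1854. The pairs share libraries with each other, each stage is 1 library, and whether the order would recur in other pools was not tested.

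The order was most frequent among the most abundant members. Of the 20 members with at least 1000 CPM at 0 dpa, 19 had it, and their median later levels were 1.04%, 0.0881% and 2.72% of the uninjured level. Of the other 80 members, 54 had it, with medians of 0.917%, 0.316% and 2.20%. Over all 1854 components with at least 50 CPM at 0 dpa, 22.5% had the order. The share among all components with at least 1000 CPM was not computed, so a link of the order to abundance was not tested.

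Over all members the median level left at 3, 7 and 14 dpa was 0.953%, 0.225% and 2.43% of the uninjured level. At 7 dpa, 84 members were under 1% and 36 under 0.1%, while at 14 dpa 21 were under 1% and 4 under 0.1%. At 14 dpa 92 members remained under 5%. The ranking used these levels, so shares this low are a property of the choice. Over all 1854 components with at least 50 CPM at 0 dpa, the median levels left were 85.8%, 102% and 92.5%.

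A few members went another way, and these were singled out after their values were seen. The component comp43234_c0, the fifth by reads in the uninjured library with 15547 CPM, was almost level afterwards at 438, 544 and 422 CPM at 3, 7 and 14 dpa. The component comp58665_c0 had 541 CPM at 0 dpa and then 2.18, 21.9 and 10.8 CPM. It was the only member more than 1.5-fold higher at 7 than at 3 dpa and the only one more than 1.5-fold lower at 14 than at 7 dpa. In all 5 members were highest at 7 dpa among the later libraries, beside 829 of the 1854. The 5 were these 2 and comp58810_c0, comp59157_c0 and comp57634_c0, and the last 3 had under 1 CPM in every later library.

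The members also differed in how many transcripts the assembler had made of them. There were 70 members with 1 transcript, 16 with 2 or 3 and 14 with 4 or more, up to 22. Among all 1854 components 18.8% had 4 or more transcripts, against 14% of the members. No member with a symbol was among the 14.

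The 14 many-transcript members had other medians after amputation than the rest. Their median levels at 3, 7 and 14 dpa were 0.547%, 0.465% and 0.461% of the uninjured level. The medians hide spread, since 6 of the 14 kept their later libraries within 2-fold of each other and 3 had them over 5-fold apart. Among the other 86, 6 were within 2-fold and 61 over 5-fold apart. Such counts are not given here for all 1854 components, so they have no baseline. Folds between low levels also move with a few reads. The 86 members with fewer transcripts had medians of 1.01%, 0.164% and 2.71%. The order 14 dpa above 3 dpa above 7 dpa was seen in 3 of the 14 and in 70 of the 86, and in 29.6% of all 348 components with at least 50 CPM at 0 dpa and 4 or more transcripts. From 7 to 14 dpa, 1 of the 14 and 77 of the 86 were more than 1.5-fold higher, beside 16.7% of the 348. Counts of 3 and 1 of 14 do not set them apart from other components with many transcripts.

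Within the 14, reads were spread over the transcripts. All 118 transcripts of these components had over 3 reads at 0 dpa and fewer reads in every later library than at 0 dpa, and only 26, 24 and 21 of them had over 3 reads at 3, 7 and 14 dpa. The leading transcript held a median of 41.2% of a component's reads at 0 dpa. These components were of modest level, with a median of 99.3 CPM at 0 dpa against 349 CPM for the other 86. The 14 were grouped by transcript number after the data were seen, and the part of assembly or of low counts in their shape was not tested.

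**Figure D4:**
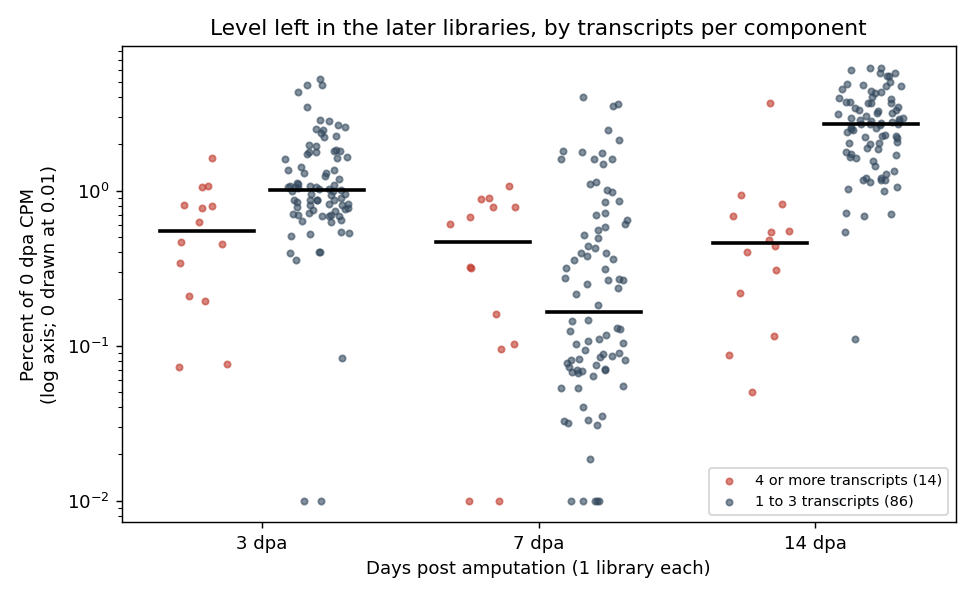
Level in each later library as a percent of the 0 dpa CPM (log axis), 1 point per member, for the 14 members with 4 or more transcripts (red) and the 86 with 1 to 3 (dark), with bars at the medians. The red medians are 0.547%, 0.465% and 0.461% at 3, 7 and 14 dpa, with single points spread around them, and the dark medians are 1.01%, 0.164% and 2.71%.

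Lists of muscle genes were read across all named components with a mean of at least 1 CPM. The names again come in large part from the study's table of transcripts that dropped, so the counts are biased towards lower. The 3 muscle lists held 33 components, 4 of them members. Of these 28, 28 and 23 were more than 1.5-fold lower at 3, 7 and 14 dpa than in the uninjured fin, beside 10.9%, 9.34% and 8.95% of all 28836 components. Counting only the 9 components named by the ortholog table, 9, 8 and 8 were lower and none was higher at any stage.

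Of the 15 sarcomere components, 14 were lower at 3 and at 7 dpa but only 8 at 14 dpa, and the median log2 change was −2.29, −3.91 and −0.64. All 3 components of the excitation and calcium list were lower at every stage. Of the 15 components of the energy metabolism list, 11, 11 and 12 were lower, with flat medians of −1.98, −1.99 and −1.88. The order 14 dpa above 3 dpa above 7 dpa was seen in 13 of 15 sarcomere components, all 3 of the excitation and calcium list and 3 of 15 of the energy metabolism list, beside 29.4% of all 28836 components. These are counts of components and not of genes. Most of the 15 sarcomere components carry the name neb or myom3, and tmem182 recurs in the excitation and calcium list. Components of the same name may be pieces of the same gene and are not separate support for the order.

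The abundant components of the muscle lists outside the 100 were a thin filament protein, a nebulin component and metabolic enzymes. Being on a list does not make a component particular to muscle. Slow skeletal troponin T (tnnt1), part of the switch of the thin filament, had 401, 10.1, 3.34 and 31.2 CPM at 0, 3, 7 and 14 dpa. It ranked at 118, just outside the members. The enolase component that carries the names eno1a and eno3, a step of glycolysis, had 8308, 595, 708 and 551 CPM and was ranked at 127. Its later levels lay within 1.5-fold of each other.

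Other metabolic components kept more of their level. Glycogen phosphorylase (pygb) had 1429, 247, 286 and 262 CPM at 0, 3, 7 and 14 dpa. Malate dehydrogenase (mdh2) had 780, 197, 196 and 187 CPM, and adenylate kinase (ak1), which balances adenine nucleotides, had 701, 138, 124 and 126 CPM. Phosphoglucomutase (pgm1) kept 11.9 to 13.7% of its uninjured level. Lactate dehydrogenase (ldhba), glycerol phosphate dehydrogenase (gpd1c) and glycogenin (gyg1a) kept 54.0 to 75.2% of theirs. These shares move with the scaling, and with the trimmed mean the last 3 kept 22.8 to 37.9% and pgm1 5.18 to 6.67%.

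Nebulin was split over 6 components, of which 1 was a member. The next, comp56408_c0, had 1021, 26.5, 1.66 and 82.6 CPM over the 4 stages and ranked at 125. The 4 weaker neb components, named after their values were seen, were closer to their uninjured level at 14 dpa. The component comp49343_c0 had 24.2, 3.70, 0.0461 and 12.4 CPM, comp50155_c0 had 15.8, 4.46, 0.115 and 14.7 CPM, and comp44492_c0 had 2.99, 1.15, 0 and 3.47 CPM. At 14 dpa these 3 stood at 51.3%, 93.2% and 116% of 0 dpa, against 3.02% for the member. These shares use library totals and are lower with the trimmed mean, so they do not show a full return. With it, the log2 change of comp56408_c0 at 14 dpa went from −3.61 to −4.83.

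The sixth, comp57984_c0, had 59.4, 32.1, 30.1 and 37.7 CPM and lacked the deep 7 dpa level. Thus components of the same name differed widely in how far they had come back at 14 dpa. Whether they are exons of a common mRNA, separate forms or separate genes of the nebulin family was not tested, because their sequences were not analysed here.

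**Figure D5:**
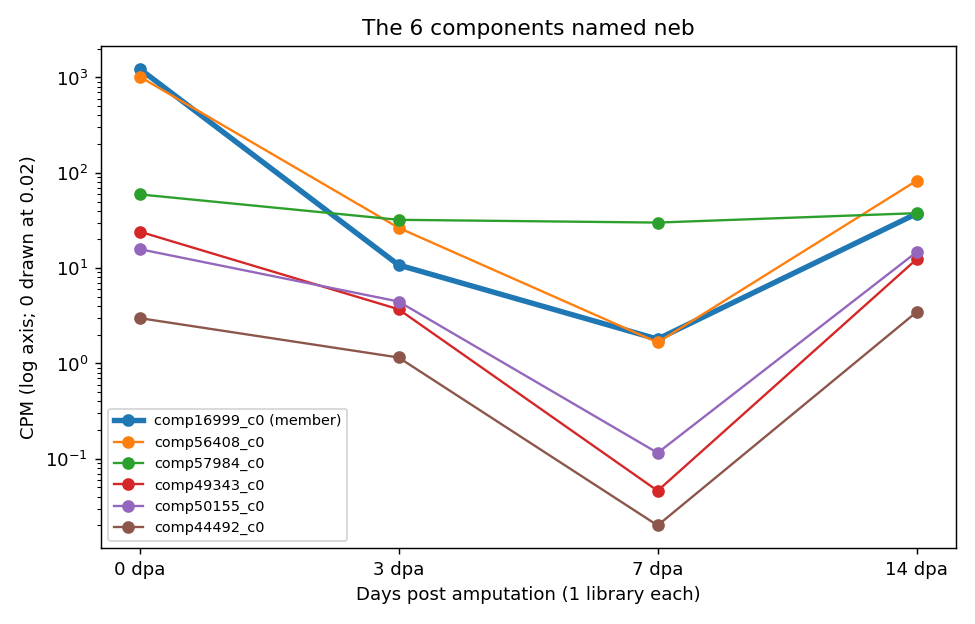
CPM (log axis) of the 6 components named neb in the 0, 3, 7 and 14 dpa mRNA libraries, the member drawn thick. Both abundant components stay at 37.3 and 82.6 CPM at 14 dpa against 1234 and 1021 CPM at 0 dpa, while 2 weak ones reach 14.7 and 3.47 CPM at 14 dpa against 15.8 and 2.99 CPM at 0 dpa.

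Among genes of muscle precursors, named after their values were seen, myod1, the regulator that commits cells to muscle, had 48.4, 1.34, 0.554 and 13.8 CPM at 0, 3, 7 and 14 dpa. It had the same order of later levels as most members. It was below 50 CPM at 0 dpa and could not be a member. The list held 3 components, 2 of which (myod1 and eya4) were lower at every stage while mef2d was higher.

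Other tissues of the fin were read with the same kind of list. The 9 epidermis components summed to 8321, 10421, 9826 and 8312 CPM at 0, 3, 7 and 14 dpa, so that their sum was high in all 4 libraries. Of these, 2, 2 and 3 were lower and 3 higher at each stage. Most of the sum was comp59445_c0, singled out after its values were seen, at 4751, 5547, 6513 and 4264 CPM. Its name, zgc:92061, recurs in the list, and some listed components were low. The 9 leukocyte components summed to 2040, 1713, 2860 and 1832 CPM, with 6 higher and 2 lower at every stage. Most of that sum was cd74a, singled out after its values were seen, at 1965, 1407, 2551 and 1627 CPM. The sum thus does not stand for the other leukocyte components. Of all 28836 components, 19173, 18355 and 19470 were higher at 3, 7 and 14 dpa, and 10.9%, 9.34% and 8.95% were lower. Most components were thus higher under this scaling, and the counts of higher components in these and the following lists stand beside that. The red blood cell list was represented by alas2 alone, at 34.8, 365, 264 and 199 CPM.

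The 3 myelin and nerve components summed to 79.9, 25.3, 9.0 and 31.2 CPM at 0, 3, 7 and 14 dpa. Of these 2, 3 and 2 were lower at 3, 7 and 14 dpa, and 2 of 3 had the order 14 dpa above 3 dpa above 7 dpa. The 7 of skeleton and dermis summed to 71.7, 45.4, 47.7 and 116 CPM, with 2, 2 and 1 lower, 3, 4 and 5 higher and 2 of 7 in that order. No epidermis component and 1 of 9 leukocyte components had it. In the skeleton and dermis list col1a2 was listed at 0 in the 0 dpa library and col1a1a at 0 and 3 dpa, so that these names do not stand for the main collagen transcripts of the fin. The 3 components of blood vessels and smooth muscle, acta2 included, summed to 204, 104, 87.5 and 156 CPM. No component carried a name of the fat list. Of 63 ribosomal protein components, 60, 37 and 57 were lower at 3, 7 and 14 dpa, with median log2 changes of −1.50, −0.64 and −1.39. Of the 1854 components with at least 50 CPM at 0 dpa, 41.7%, 36% and 38.6% were lower at those stages. With the trimmed mean 67.7%, 60.4% and 70.0% of the 1854 were lower, so such counts among abundant components depend on the scaling. The part of tissue mix in the drop of the members was not tested.

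The small RNA libraries of the same stages give a readout that the choice of members did not use. Muscle fibers carry a small set of miRNAs, short RNAs that pair through their seed (bases 2 to 8) with target mRNAs. The sequences of the 3 most abundant of these, from the supplementary sequences of the study, are shown because miR-1b and miR-206 share their seed and miR-133a does not. The seed is in capitals.
miR-1b: tGGAATGTaaagaagtatgtct
miR-206: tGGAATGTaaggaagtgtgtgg
miR-133a: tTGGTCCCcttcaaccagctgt

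By assigned small RNA reads, miR-1b had 178922, 5652, 854 and 9492 CPM at 0, 3, 7 and 14 dpa. miR-206 had 53833, 2789, 783 and 12619 CPM. Both had the order of the members, 14 dpa above 3 dpa above 7 dpa, and miR-206 had returned to 23.4% of its uninjured level at 14 dpa. miR-133a had 12492, 177, 661 and 236 CPM and was lowest at 3 dpa. miR-499 had 1901, 18.5, 81.3 and 11.5 CPM and miR-208 had 437, 8.65, 269 and 5.98 CPM. These 3 of the 5 muscle miRNAs were highest at 7 dpa among the later libraries, against the order of most members, and miR-208 stood at 61.6% of its uninjured level at 7 dpa. The 7 dpa small RNA library held only 196763 reads assigned to miRNAs, against 6083774 at 0 dpa. Its values for the 5 miRNAs rest on 168, 154, 130, 16 and 53 reads. Together the 5 held 24.8%, 0.864%, 0.265% and 2.24% of these assigned reads at 0, 3, 7 and 14 dpa. Small RNA reads not assigned to a miRNA are not in these totals. How many of all 153 miRNAs were lower, or had the order of the members, is not given here. The counts among the 5 thus have no baseline, and whether they differ from miRNAs in general was not tested.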

How the data were processed

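Samples were grouped by the stage and library type in their labels. According to the methods of the study, mRNA reads were trimmed with Trimmomatic, assembled with Trinity and counted per transcript with RSEM. Small RNA tags were annotated with miRMiner. In each table the authors deposited log2 values, under a title that calls them log CPM. Since 2 raised to each value above 0 was whole within 0.01% for 100% of values, the deposited log2 values were read as unscaled read counts. A listed 0 can be 0 or 1 read and was read as 0. Of 132496 mRNA rows, 4760 exact repeats were dropped, and the rest were summed per component.

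CPM used column totals. A pseudocount of 1 CPM and a threshold of 0.58 on the log2 scale were used. Intervals were Clopper-Pearson for changes and Wilson for shares, and cover counting error only. Folds against 0 reads were set at 3 reads. The members and lists were chosen with earlier results of these data known. Named were members with a symbol, the 2 most abundant others and the components at the edge of the choice. The 10 most abundant components of the muscle lists outside the choice were named too. Others were named after their values were seen, as stated. Lists covered sarcomere, excitation and calcium, energy metabolism, myogenic cells, epidermis, skeleton and dermis, myelin and nerve, red blood cells, leukocytes, fat, blood vessels and smooth muscle, and ribosomal proteins. None of the identifiers matched the RefSeq gene table (0 matched), so no positions or sequences of members are given. Alternatives covered scaling, pseudocount, threshold, filters and the rule itself. Python 3.11.15, numpy 2.4.6, pandas 2.3.3 and scipy 1.17.1 were used, with figures from matplotlib 3.10.9, and the code was tested on simulated counts.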

Additional observations from a re-analysis of the deposited data

How the results depend on the processing

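No paired analysis was possible because each group holds 1 library and no result comes from a test. No change of setting turned the direction of a result for the members. Directions in the comparison set of 1854 components did turn with the scaling. Its 7 dpa median against 0 dpa changed sign. At 14 against 7 dpa, 13.5% of it was lower and 19.3% higher by library totals, but 27.7% lower and 13.9% higher with trimmed log ratios. The median changes of the members at 3, 7 and 14 dpa were −6.64, −7.44 and −6.08 with trimmed log ratios, −7.33, −8.003 and −6.47 under median of ratios, and −6.39, −7.25 and −5.44 with totals without the 10 most abundant components. They were −6.63, −8.56 and −5.33 with a pseudocount of 0.1 CPM and −4.98, −5.32 and −4.52 with 5 CPM. Without the members of 4 or more transcripts, an alternative added after the data were seen, they were −7.40 at 7 dpa and −5.07 at 14 dpa, and with the leading transcript only −5.15 at 14 dpa. Among the small counts, members higher at 7 than at 3 dpa numbered 2 under median of ratios and with no depth scaling, and 4 with 0.1 CPM. Members lower at 14 than at 7 dpa numbered 2 under the trimmed mean and under median of ratios, 3 with 0.1 CPM and 0 with a threshold of 1. Members lower at 14 than at 3 dpa numbered 5 with 0.1 CPM, 0 with 5 CPM, 0 with a threshold of 1 and 1 with the whole interval past 0.58. Members highest at 7 dpa numbered 9 under median of ratios. Over totals without the 10 most abundant components, member reads came to 16.97%, 0.194%, 0.0881% and 0.396% at 0, 3, 7 and 14 dpa. These are ratios and not shares, because only the total was reduced while all members stayed in the count of member reads. Of the 10 components with the most reads at 0 dpa, 3 were members. A share with those members taken out of both was not computed. The cause of the shifts in the medians and counts was not tested.

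The larger counts stayed within 1.5 times of their value under every alternative run. Members lower at 7 than at 3 dpa ranged from 40 to 77, members higher at 14 than at 7 dpa from 62 to 86 and members higher at 14 than at 3 dpa from 41 to 59. The muscle list count at 7 dpa ranged from 19 to 31. Of the 100 members, 71 stayed in the top 100 when transcripts replaced components, the lowest of 10 settings, and 78 to 100 in the other 9. Of 414 changes of 23 named components under alternatives, 405 kept their side of 0.58, 9 (all ldhba or gyg1a) crossed it and 0 turned. With 1 library per group, depth limits only the low values, and 9 members had 3 reads or fewer at 7 dpa.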
